A study of Mus musculus with 15 samples.

Results

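The 49 genes described here encode proteins that build the mitotic spindle, attach chromosomes to it, time their separation and divide the cell. They were taken as a named list, from *Mki67* to *Espl1*, whose rule uses no measured value, although it was drawn up with earlier results of these data known. In each library their transcript counts were summed per gene, which gave 49 of the 55266 genes in the data. Of these 49, 30 passed the filter on low counts and were among the 10603 genes tested.

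All libraries were made from NIH3T3, a long-established mouse fibroblast line, and the cells of every group carried a histone H2A fusion under doxycycline control. There were 5 groups of 3 libraries, numbered 1 to 3. TerminaTOR cells, whose H2A fusion inhibits the growth kinase complex mTORC1 in the nucleus, received cycloheximide, a blocker of protein synthesis, and PDGF, a mitogen for fibroblasts. Control cells expressing H2A-mCherry received cycloheximide with PDGF, rapamycin with PDGF, PDGF alone or no PDGF, where rapamycin inhibits mTORC1 throughout the cell. The series' design text states that the cells were starved before stimulation. It names 1 stable line per fusion, so the fusion and the line that carries it cannot be told apart. Doses and times are not stated in the labels. Separate cultures for the replicates are not stated either, so p-values measure only how far these samples spread, which may be technical.

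Mitotic genes are transcribed late in the cell cycle. In quiescent and early G1 cells the DREAM complex, which contains the MuvB core and the pocket protein p130, holds them silent, and in S and G2 phase the same MuvB core joins B-Myb and FoxM1 to activate them. Contact with DNA is made largely through a short element near the start site, the cell cycle genes homology region (CHR), often with upstream CCAAT boxes that bind NF-Y. Cyclin B with Cdk1 then starts mitosis. The spindle checkpoint restrains the anaphase-promoting complex through its activator Cdc20 until every kinetochore is attached. In bulk samples such as these, fewer cells of a kind and less RNA per cell cannot be told apart.

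The promoters are shown because these elements are the known route of control of mitotic genes. Whether they bear on the changes in these data was not tested. RefSeq windows on GRCm38.p6, from 250 bases before to 50 bases after each annotated start, were found for 42 of the 49 genes, in 44 windows since *Ect2* and *Prc1* have more than 1 start. The 4 windows printed belong to the genes with the largest falls under rapamycin among the called genes outside chromosome 8, namely *Bub1b*, *Cdc20* and *Hmmr*, and to *Cenpf*. They run 5′ to 3′ on the gene's strand, and capitals mark CHR elements (TTTGAA, either strand) and CCAAT boxes (either strand, ATTGG where reversed).
Bub1b (chr2:118597961-118598260, plus strand): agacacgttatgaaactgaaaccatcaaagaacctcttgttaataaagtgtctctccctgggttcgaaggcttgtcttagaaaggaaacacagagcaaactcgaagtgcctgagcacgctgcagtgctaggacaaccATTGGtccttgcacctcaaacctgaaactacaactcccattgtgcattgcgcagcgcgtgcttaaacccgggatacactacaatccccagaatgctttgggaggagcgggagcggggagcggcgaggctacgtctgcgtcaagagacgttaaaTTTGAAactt
Cdc20 (chr4:118437294-118437593, minus strand): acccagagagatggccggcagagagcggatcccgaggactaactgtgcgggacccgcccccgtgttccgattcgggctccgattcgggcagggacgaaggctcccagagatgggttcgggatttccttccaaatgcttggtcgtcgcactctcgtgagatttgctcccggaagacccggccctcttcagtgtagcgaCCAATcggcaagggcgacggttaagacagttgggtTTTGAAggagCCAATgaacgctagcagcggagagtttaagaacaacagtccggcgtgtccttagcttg
Hmmr (chr11:40733388-40733687, minus strand): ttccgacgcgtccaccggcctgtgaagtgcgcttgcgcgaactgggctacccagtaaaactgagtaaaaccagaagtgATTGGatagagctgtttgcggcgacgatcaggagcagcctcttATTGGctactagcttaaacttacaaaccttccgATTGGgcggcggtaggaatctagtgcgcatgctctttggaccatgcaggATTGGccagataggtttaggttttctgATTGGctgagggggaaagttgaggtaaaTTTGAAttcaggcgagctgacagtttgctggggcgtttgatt
Cenpf (chr1:189688037-189688336, minus strand): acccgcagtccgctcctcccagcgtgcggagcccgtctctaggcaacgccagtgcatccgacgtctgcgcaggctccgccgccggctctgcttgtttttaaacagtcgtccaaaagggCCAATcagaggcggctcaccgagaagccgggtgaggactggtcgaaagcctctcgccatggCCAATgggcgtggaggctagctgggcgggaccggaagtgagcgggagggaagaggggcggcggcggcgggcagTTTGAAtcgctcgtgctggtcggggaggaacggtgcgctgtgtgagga

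Counted from the start site, the CHR began at 41 in *Bub1b*, −18 in *Cdc20*, 9 in *Hmmr* and 3 in *Cenpf*. The *Hmmr* window held 5 CCAAT boxes. The letters TTTGAA, on either strand, were present in 37 of the 44 windows (84.1%), against 17.9% of all 32851 RefSeq windows of the same length. Within 50 bases of the start they were present in 32 windows (72.7%), against 4.94% of all. CCAAT, on either strand, was present in 35 windows (79.5%, against 37.4% of all), and at least 2 copies in 22 (50%, against 11.7%). Both elements were found in 32 windows (72.7%), against 6.95% of all. The letters GGCGG followed by any 4 bases and TTTGAA, a cell cycle dependent element in front of a CHR, occurred on either strand in the *Cenpf* window and in 12 of all windows (0.0365%). Among tested genes with a window, *Birc5*, *Bub1*, *Cenpe* and *Kif18a* had no TTTGAA. A match of letters is a description of the window, not evidence of a bound site.

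The genes the results return to most lie on 6 chromosomes of GRCm38. *Bub1b* (ENSMUSG00000040084.9, chr2:118598211-118641591, plus strand) and *Cdc20* (ENSMUSG00000006398.15, chr4:118432901-118437352, minus strand) act in the spindle checkpoint. *Plk1* (ENSMUSG00000030867.7, chr7:122159439-122169873, plus strand) and *Cdk1* (ENSMUSG00000019942.13, chr10:69335146-69352938, minus strand) are kinases. *Cenpf* (ENSMUSG00000026605.14, chr1:189640606-189688086, minus strand) acts at the kinetochore and *Hmmr* (ENSMUSG00000020330.16, chr11:40701395-40733422, minus strand) at the spindle. *Mki67* (ENSMUSG00000031004.8, chr7:135689784-135716361, minus strand) and *Top2a* (ENSMUSG00000020914.17, chr11:98992943-99024189, minus strand) act on chromosomes.

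Library totals ran from 3466202 to 6777780 counts, and no replicate pair agreed within sampling noise (chi-square per degree of freedom 2.56 to 8.12). All 14 fibroblast markers had reads, at a summed level of 6167 to 10878 CPM, read counts scaled to library size, per library. Markers of macrophages summed to 6.72 to 26.1 CPM with 2 of 7 at 0 reads, epithelial markers to 0.475 to 3.88 CPM with 3 of 5 at 0, and endothelial markers to 0.654 to 4.74 CPM with 1 of 5 at 0. Immediate early genes, which PDGF induces directly, were higher with PDGF in 18 of 19 tested (20.1% of all genes were), with a median log2 change of 3.65.

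Only some mitotic genes could be measured. Counts were deposited per transcript, and the 30 tested genes had a median of 3662 bases that belong to a single annotated transcript, against 1415 in the 19 genes that failed the filter. As a share of exonic bases the medians were 70.2% and 26.1%. The genes that could not be tested include central ones: *Ccnb1*, the partner of Cdk1, had 78 reads over all 15 libraries, the spindle kinase *Aurka* 9, the chromosomal passenger kinase *Aurkb* 6 and the checkpoint kinase *Ttk* 4. *Smc2* had 1 read with 74 bases of its own, *Ect2* 2 reads and *Kif14* none. The remaining 12 (*Kif20a*, *Kif20b*, *Tpx2*, *Nusap1*, *Cdca2*, *Cdca3*, *Ndc80*, *Nuf2*, *Spc25*, *Incenp*, *Smc4* and *Espl1*) had between 14 and 76 reads. Of the 18 untested genes with any read, 13 had most of their reads on transcripts not annotated as protein-coding. The median hides exceptions: *Nuf2* and *Ndc80* had 4273 and 4170 bases of a single transcript, and *Cdca3* had 990, more than the 815 of *Cdc20*, which had 5243 reads. How much of the low counts of the 19 genes comes from the counting per transcript was not tested, and they are not read here as low RNA.

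Among the 30 tested genes, 25 had over 90% of their reads on protein-coding transcripts. For 4 genes the share was under 50%, namely *Kif23* (37.3%), *Cenpa* (13.4%), *Prc1* (6.56%) and *Racgap1* (0%), and for *Kif18a* it was 55.2%. The counted reads of the 4 genes thus lay mostly on retained-intron or other annotated transcripts, and those of *Kif18a* in large part. The share also depends on how many bases each transcript has to itself, so it does not measure the amount of coding RNA. This is pointed out below for *Cenpa*, *Prc1*, *Racgap1* and *Kif18a*.

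Levels are CPM, counts divided by the library total after edgeR's TMM scaling of the totals, and group values are the mean ± standard deviation (SD) of 3 libraries. They are not per length and do not compare genes with each other. Summed over the 49 genes, the level was 3097 ± 129 CPM in TerminaTOR cells, 2699 ± 135 CPM in control cells with cycloheximide and PDGF, 1361 ± 102 CPM with rapamycin and PDGF, 2415 ± 93.2 CPM with PDGF and 3055 ± 123 CPM without PDGF. *Mki67*, which encodes the antigen Ki-67 that coats mitotic chromosomes, was the most counted of them, and without it the rapamycin group was still the lowest, at 1022 ± 70.2 CPM against 1747 ± 65.8 CPM with PDGF. The rapamycin group had the lowest mean in 26 of the 30 genes, and TerminaTOR cells the highest in 21. Libraries without PDGF had the highest mean in 8 genes. The order at the top rests on the scaling: as an unscaled share of all reads, the 49 genes took 0.275% to 0.304% in TerminaTOR libraries, 0.234% to 0.265% in their cycloheximide controls, 0.117% to 0.138% with rapamycin, 0.239% to 0.252% with PDGF and 0.361% to 0.377% without PDGF.

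**Figure D1:**
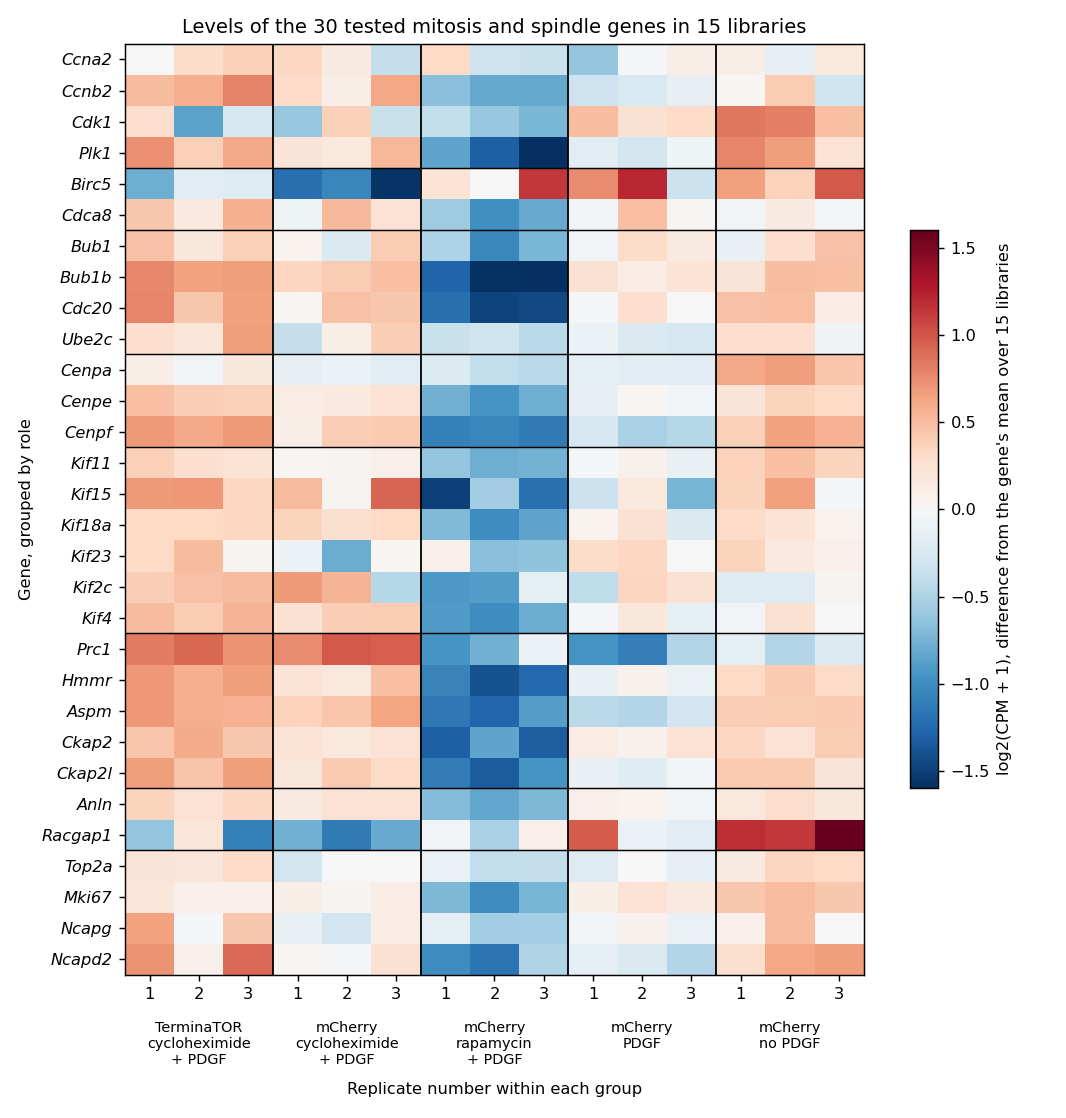
Each row is a tested gene, grouped by role, and each column a library, with colour giving log2(CPM + 1) as the difference from that gene's mean over the 15 libraries. The rapamycin group has the lowest mean in 26 of the 30 genes, while *Birc5*, *Racgap1*, *Prc1* and *Ccna2* have their lowest mean in another group.

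Changes were tested with edgeR's quasi-likelihood F test over all 10603 genes, and a gene was called changed at a Benjamini-Hochberg adjusted p under 0.05. Log2 changes carry an approximate standard error (SE), the size of the change divided by the square root of F.

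PDGF was set against no PDGF in starved control cells. Mitotic genes were lower with PDGF in 13 of 30 tested and higher in none, a direction called in 16.9% of all genes. The median log2 change was −0.32, against −0.01 over all genes tested. At an unadjusted p under 0.05, 17 genes were lower and 0 higher, and DESeq2 and limma-voom each called 13 lower and 0 higher. In 16 genes the PDGF libraries lay wholly below those without PDGF, against 22.5% of all genes. Without TMM scaling, by library size only, 23 genes were called lower, but the median of all genes then shifted to −0.26.

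All 3 tested centromere and kinetochore genes fell with PDGF. *Cenpf*, which encodes a large kinetochore protein, had 61.4, 51.4 and 53.6 CPM with PDGF against 96.5, 116 and 109 CPM without. The groups did not overlap, and the log2 change was −0.95 ± 0.10 SE, adjusted p = 3.26e-12. *Cenpe*, a kinetochore motor, averaged 198 ± 10.7 CPM with PDGF and 251 ± 13.5 CPM without (−0.34 ± 0.07 SE, adjusted p = 6.93e-05). *Cenpa*, the histone H3 variant that marks centromeres, had 16.8, 16.5 and 16.6 CPM with PDGF against 29.4, 30.8 and 26.2 CPM without (−0.79 ± 0.18 SE, adjusted p = 0.000194). That fall lay on retained-intron and other non-coding transcripts (13.6 ± 0.609 CPM with PDGF against 26.6 ± 3.25 CPM without), while the few protein-coding reads gave 3.02 ± 0.517 CPM with PDGF and 2.24 ± 1.36 CPM without, and with protein-coding transcripts only the log2 change was 0.45.

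Kinases, spindle and condensin genes fell in part. *Plk1*, the kinase that drives centrosome maturation and many later steps, had 20.1, 18.4 and 21.5 CPM with PDGF against 39.8, 36.6 and 26.9 CPM without. Every PDGF library was below every library without it (−0.78 ± 0.17 SE, adjusted p = 0.000176). *Aspm*, a spindle pole protein, had 37.5, 36.4 and 41 CPM with PDGF against 67.6, 68.1 and 68.6 CPM without (−0.83 ± 0.12 SE, adjusted p = 2.1e-08). *Ncapd2*, a condensin I subunit that compacts chromosomes, had 17.9, 16.8 and 14.1 CPM with PDGF against 24, 31.2 and 32.4 CPM without (−0.85 ± 0.19 SE, adjusted p = 0.000235). *Racgap1*, part of the centralspindlin complex of cytokinesis, had the largest fall of a called gene, −1.32 ± 0.50 SE (adjusted p = 0.0307), on 29 reads with PDGF against 94 without. Its libraries had 4.41, 1.55 and 1.45 CPM with PDGF against 5.27, 5.02 and 7.85 CPM without. None of these reads lay on a protein-coding transcript. Such transcripts of *Racgap1* had at most 4 bases of their own, against 2674 in 1 retained-intron transcript. Coding reads could hardly be counted, and which kind of RNA fell cannot be told. The *Racgap1* call was lost in 3 of 6 fits that left out a library, namely replicate 3 without PDGF or PDGF replicate 2 or 3 (adjusted p 0.00756 to 0.172 over the 6).

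The other called genes fell less. *Mki67* had 635, 701 and 667 CPM with PDGF against 807, 844 and 808 CPM without (−0.29 ± 0.06 SE, adjusted p = 3.66e-05). *Top2a*, the topoisomerase that untangles sister chromatids, had 188, 217 and 198 CPM with PDGF against 239.7, 276 and 271 CPM without (−0.38 ± 0.08 SE, adjusted p = 5.32e-05). The motor *Kif11*, which pushes spindle poles apart, fell by 0.43 on the log2 scale. The spindle proteins *Ckap2l* and *Hmmr* fell by 0.47 and 0.40. *Anln*, a scaffold of the contractile ring, fell by 0.18, a call that was lost when replicate 2 without PDGF or PDGF replicate 3 was left out (adjusted p 0.0199 to 0.183). *Cdk1*, the kinase that starts mitosis, had 9.09, 7.5 and 7.87 CPM with PDGF against 11.8, 11.6 and 8.98 CPM without and was not called (−0.40 ± 0.30 SE, adjusted p = 0.305). *Bub1b*, the checkpoint gene for BubR1, had 76, 69.3 and 74.4 CPM with PDGF against 74, 90.3 and 89.6 CPM without and was not called either (adjusted p = 0.147). None of the 4 tested checkpoint and anaphase-promoting genes passed, with 2 of them lower at an unadjusted p under 0.05. 

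**Figure D2:**
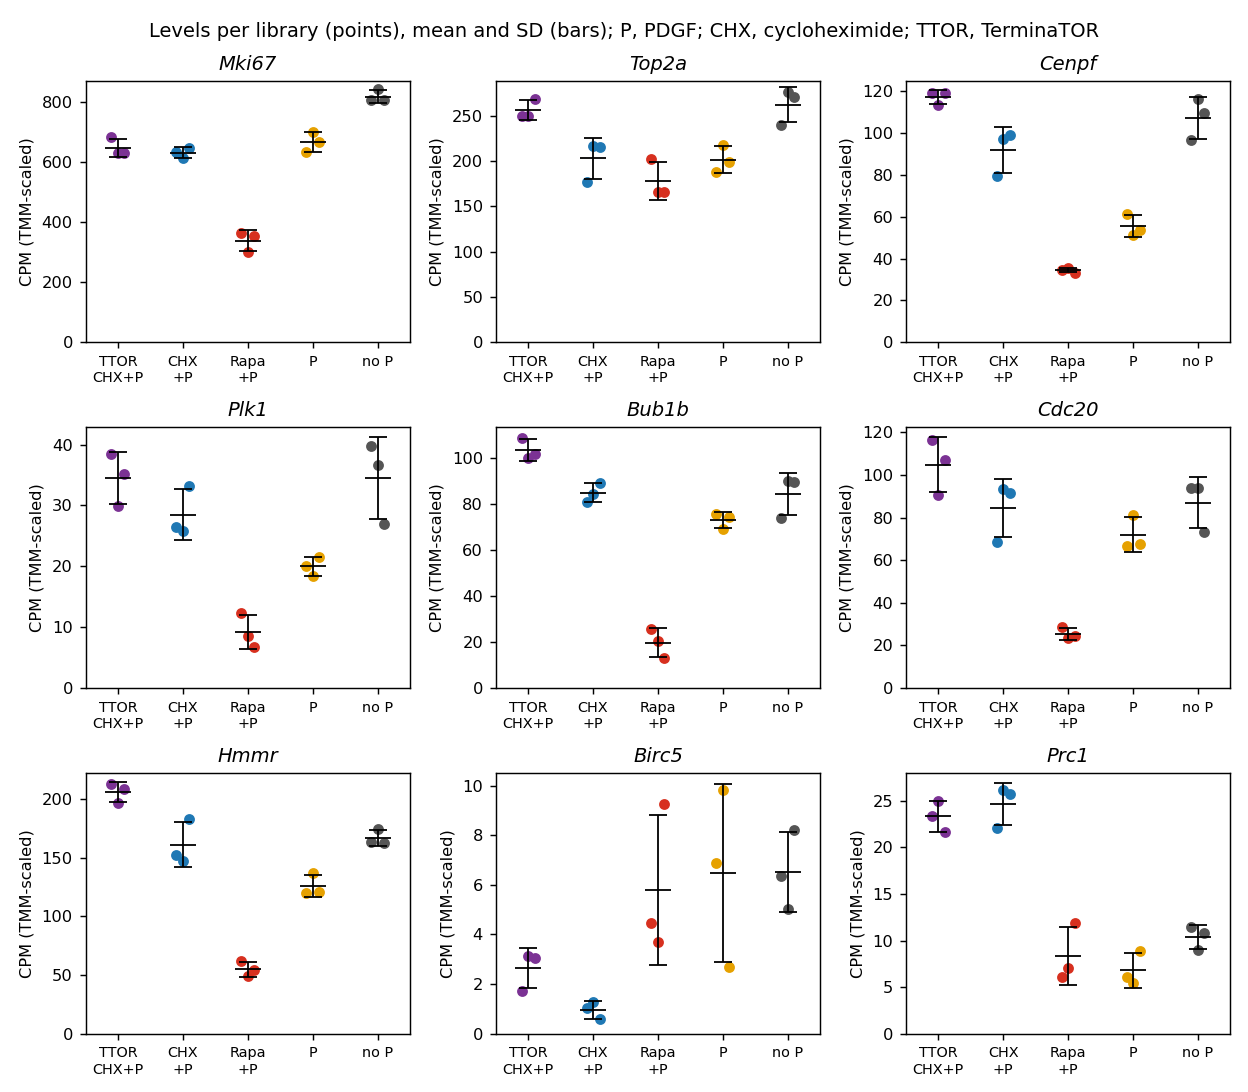
CPM per library (points) for 9 genes, with the mean and SD of each group (bars), ordered TerminaTOR, cycloheximide control, rapamycin, PDGF and no PDGF. *Bub1b*, *Cdc20*, *Hmmr*, *Plk1* and *Mki67* are lowest with rapamycin in every library, *Birc5* is lowest with cycloheximide, and *Prc1* is high in both cycloheximide groups.

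Rapamycin with PDGF was set against PDGF to ask which responses depend on mTORC1. Most mitotic genes fell: 20 of 30 were lower and none higher, a direction called in 16.1% of all genes. The median log2 change was −0.83, against 0.02 over all genes, and 7 of the called genes fell more than 2-fold. At an unadjusted p under 0.05, 22 were lower and 0 higher, and DESeq2 and limma-voom each called 18 lower and 0 higher. In 22 genes the rapamycin libraries lay wholly below the PDGF libraries, against 19.7% of all genes. Leaving out any single library of the pair left 18 to 20 genes lower. Fibroblast markers also summed lower with rapamycin, 6167 to 6449 CPM against 8795 to 9201 CPM with PDGF. Of the 12 tested markers, 6 were called lower and 3 higher (16.1% and 16.3% of all genes). The part of these markers in the result was not tested.

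Of 4 tested genes of the spindle checkpoint and its release, 3 fell, with the 2 largest falls of all 30. *Bub1b* had 25.6, 20.6 and 13.1 CPM with rapamycin against 76, 69.3 and 74.4 CPM with PDGF, and the highest rapamycin library was far below the lowest PDGF library. Its log2 change was −1.91 ± 0.14 SE, adjusted p = 3.55e-19, a 3.75-fold lower level. *Cdc20*, the activator of the anaphase-promoting complex, had 28.7, 23.4 and 24.2 CPM with rapamycin against 66.7, 81.4 and 67.7 CPM with PDGF. Again the groups were well apart (−1.50 ± 0.14 SE, adjusted p = 3.5e-14). The checkpoint kinase *Bub1* averaged 18 ± 3.5 CPM with rapamycin and 33.8 ± 4 CPM with PDGF (−0.91 ± 0.18 SE, adjusted p = 2.77e-05). *Ube2c*, the ubiquitin-conjugating enzyme of the same complex, had 15.9, 16.3 and 15 CPM with rapamycin and 19.3, 17.3 and 16.8 CPM with PDGF and was not called (adjusted p = 0.558), although the libraries did not overlap.

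Of 4 tested cyclins and entry kinases, 3 fell. *Plk1* had 12.2, 8.61 and 6.65 CPM with rapamycin against 20.1, 18.4 and 21.5 CPM with PDGF (−1.14 ± 0.21 SE, adjusted p = 1.22e-05). *Cdk1* had 4.46, 3.69 and 3.33 CPM with rapamycin against 9.09, 7.5 and 7.87 CPM with PDGF, without overlap (−1.09 ± 0.35 SE, adjusted p = 0.0115). Its counts are low, 42 reads with rapamycin against 100 with PDGF, and the call was lost without rapamycin replicate 3 (adjusted p 0.0158 to 0.0531 over 6 fits). *Ccnb2*, a B-type cyclin, fell by 0.56 (adjusted p = 0.0116), a call lost without PDGF replicate 3 (adjusted p 0.0121 to 0.0573). *Ccna2*, the cyclin of S and G2 phase, did not pass, with 5.64 ± 1.87 CPM with rapamycin and 5.38 ± 1.6 CPM with PDGF (0.04 ± 0.34 SE).

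Among spindle genes, *Hmmr*, whose protein binds microtubules at the poles, had 61.8, 48.9 and 54.4 CPM with rapamycin against 120.3, 137 and 121 CPM with PDGF (−1.19 ± 0.10 SE, adjusted p = 2.26e-17). *Ckap2*, a microtubule-stabilising protein, had 22.3, 31.1 and 22.1 CPM with rapamycin against 61.7, 59.4 and 66.7 CPM with PDGF (−1.33 ± 0.13 SE, adjusted p = 7.86e-14). Both genes separated the groups in every library. *Ckap2l* fell by 1.01 and *Aspm* by 0.70. *Prc1*, which bundles microtubules of the central spindle, was not called, with 6.13, 7.07 and 11.9 CPM with rapamycin against 6.06, 5.43 and 8.91 CPM with PDGF (adjusted p = 0.433).

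Of the 6 tested kinesins, 4 were called lower and stayed so whichever library was left out, except *Kif15*. *Kif4*, a chromosome-bound motor, averaged 37.7 ± 2.66 CPM with rapamycin and 71.3 ± 8.25 CPM with PDGF (−0.91 ± 0.12 SE), and *Kif11* averaged 95.9 ± 5.38 CPM with rapamycin and 156 ± 9.8 CPM with PDGF (−0.70 ± 0.08 SE). *Kif18a*, which limits chromosome oscillation, averaged 20.6 ± 2.19 CPM with rapamycin and 38.6 ± 6.32 CPM with PDGF (−0.89 ± 0.15 SE, adjusted p = 1.62e-06). Retained-intron and other non-coding transcripts of *Kif18a* had 5.4 ± 3.56 CPM with rapamycin against 18.4 ± 4.35 CPM with PDGF, while its protein-coding transcripts had 15.2 ± 4.03 CPM with rapamycin against 20.2 ± 2.06 CPM with PDGF and were not called alone (adjusted p = 0.175). *Kif15*, on 33 reads with rapamycin against 71 with PDGF, passed narrowly (adjusted p = 0.0429) and failed in 4 of 6 fits without a library, those lacking PDGF replicate 1 or 2 or rapamycin replicate 1 or 3 (range 0.013 to 0.299). *Kif23* and *Kif2c* had 15 and 7 reads with rapamycin against 31 and 20 with PDGF and were not called.

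Of 4 tested genes of chromosome structure 2 were lower, and of 3 kinetochore genes 2. *Mki67* had 363, 299.6 and 355 CPM with rapamycin against 635, 701 and 667 CPM with PDGF, with every rapamycin library below every PDGF library (−0.98 ± 0.06 SE, adjusted p = 2.91e-22). *Cenpf* had 34.5, 35.4 and 33.2 CPM with rapamycin against 61.4, 51.4 and 53.6 CPM with PDGF (−0.69 ± 0.12 SE, adjusted p = 2.37e-06). *Cenpe* fell by 0.79, *Anln* by 0.78 and *Cdca8*, the borealin subunit of the chromosomal passenger complex, by 1.00. *Ncapd2* fell by 0.59 (adjusted p = 0.0384), a call lost in 4 of 6 fits without a library, those lacking replicate 1 or 2 of either group (range 0.00819 to 0.171). *Top2a* changed less, with 202, 166 and 166 CPM with rapamycin against 188, 217 and 198 CPM with PDGF. The groups overlapped and the change was not called (−0.18 ± 0.08 SE, adjusted p = 0.0831). At an unadjusted p under 0.05 all 4 tested genes of chromosome structure were lower. *Ncapg*, another condensin I subunit, had 21.7, 16.3 and 16.4 CPM with rapamycin against 23.7, 25.6 and 22.6 CPM with PDGF and was not called (adjusted p = 0.106), although the libraries did not overlap.

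**Figure D3:**
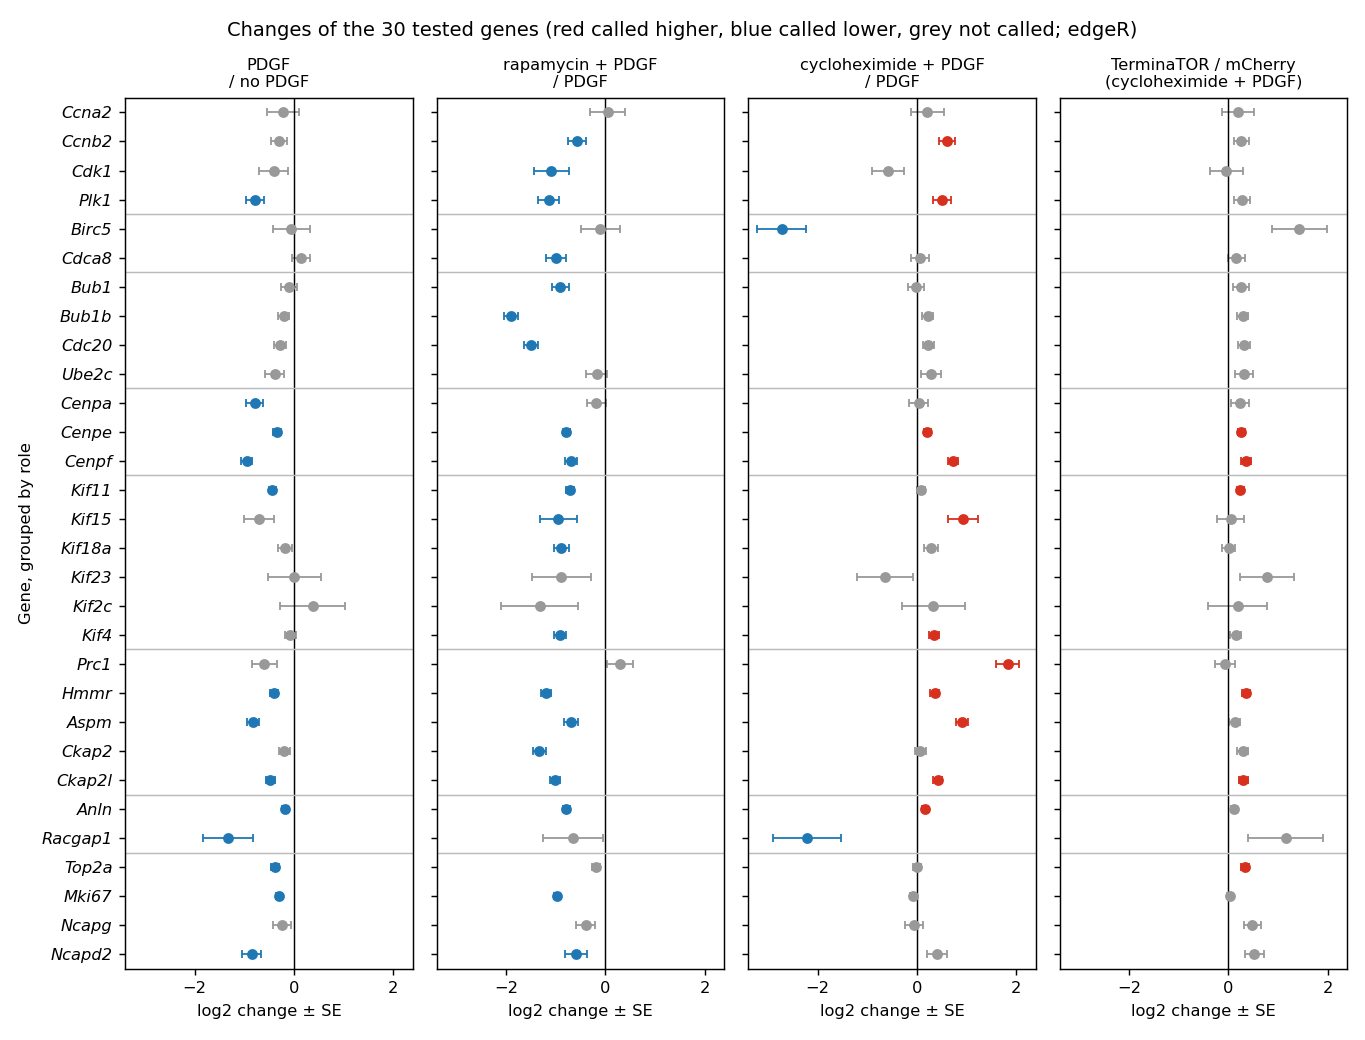
Log2 change with its approximate SE (horizontal bars) of the 30 tested genes in 4 comparisons, red where called higher, blue where called lower and grey where not called. In the rapamycin panel 20 genes are blue and none red, and in the TerminaTOR panel 6 are red and none blue.

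Against cells without PDGF, the rapamycin libraries were lower still. Of 30 genes, 25 were lower and none higher, a direction called in 25.5% of all genes, and 16 fell more than 2-fold. The median log2 change was −1.10, against 0.02 over all genes. In 26 genes the rapamycin libraries lay wholly below those without PDGF, against 27.3% of all genes. At an unadjusted p under 0.05 there were 25 lower and 0 higher, and DESeq2 and limma-voom each called 25 lower and 0 higher. *Bub1b* changed by −2.11 ± 0.14 SE, *Plk1* by −1.92 ± 0.20 SE, *Cenpf* by −1.64 ± 0.11 SE and *Mki67* by −1.27 ± 0.06 SE. *Top2a*, which did not pass against PDGF, fell by 0.56 here (adjusted p = 9.69e-09). The 5 genes not called were *Ccna2*, *Birc5*, *Prc1*, *Kif23* and *Kif2c*. This comparison shares its libraries with both preceding ones. *Cenpa* fell by 0.97, but with protein-coding transcripts only its log2 change was 0.27.

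Cycloheximide with PDGF was set against PDGF to see what changes when no protein can be made after stimulation. Mitotic genes moved upward in 11 of 30, a direction called in 21.0% of all genes, and downward in 2, a direction called in 19.6%. The median log2 change was 0.22, against 0.01 over all genes. In 13 genes the cycloheximide libraries lay wholly above the PDGF libraries (26.1% of all genes) and in 2 wholly below (24.5%). By role, 4 of 5 spindle genes other than kinesins rose, 2 of 3 kinetochore genes, 2 of 6 kinesins, 2 of 4 cyclins and entry kinases and 1 of 2 cytokinesis genes. None rose among the 4 tested genes of the checkpoint and anaphase-promoting complex, the 4 of chromosome structure and the 2 of the chromosomal passenger complex. By library size only, 7 were called higher, and 7 also without cycloheximide replicate 3 or, of 27 tested, with protein-coding transcripts only. These counts lie near the 21.0% of all genes given above and are no result about the list.

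*Prc1* rose most. It had 22.1, 26.2 and 25.7 CPM with cycloheximide against 6.06, 5.43 and 8.91 CPM with PDGF, with all libraries apart (1.83 ± 0.23 SE, adjusted p = 5.12e-10). Its counted reads lay mostly on retained-intron and other non-coding transcripts, 23.5 ± 2.29 CPM with cycloheximide against 6.38 ± 1.15 CPM with PDGF. Protein-coding transcripts had 16 reads with cycloheximide against 6 with PDGF. The counting could hardly show coding reads of *Prc1*. Its only protein-coding transcripts with bases of their own had 286 and 129, against 3105 and 1455 in retained-intron transcripts. Which kind of *Prc1* RNA rose therefore cannot be told. *Cenpf* rose to 79.4, 97.3 and 99.1 CPM with cycloheximide, against 61.4, 51.4 and 53.6 CPM with PDGF (0.73 ± 0.11 SE, adjusted p = 2.32e-08), and *Aspm* to 66.2, 69.6 and 79.5 CPM with cycloheximide, against 37.5, 36.4 and 41 CPM with PDGF (0.90 ± 0.12 SE, adjusted p = 1.83e-09). Both genes had fallen with PDGF, but both comparisons use the same PDGF libraries, so the fall and the rise are not independent. The levels of both genes with cycloheximide and PDGF lay nearer to those without PDGF, which were 107 ± 10.1 and 68.1 ± 0.519 CPM.

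*Plk1* had 26.5, 25.7 and 33.2 CPM with cycloheximide against 20.1, 18.4 and 21.5 CPM with PDGF (0.51 ± 0.18 SE, adjusted p = 0.0166), a call lost without PDGF replicate 1 or 2 or cycloheximide replicate 3 (adjusted p 0.0194 to 0.144). *Kif15* had 10.8, 7.56 and 14.8 CPM with cycloheximide against 5.51, 8.27 and 3.94 CPM with PDGF (0.94 ± 0.30 SE, adjusted p = 0.00874). Its libraries overlapped, and the call was lost without replicate 3 of either group (adjusted p 0.00289 to 0.132). *Ccnb2* rose by 0.62, *Ckap2l* by 0.42 and *Hmmr* by 0.36 on the log2 scale. *Kif4* (0.35), *Cenpe* (0.21) and *Anln* (0.17) were called by smaller log2 changes. The call of *Kif4* was lost without PDGF replicate 3 (adjusted p 0.00295 to 0.0709), that of *Cenpe* without PDGF replicate 1 or cycloheximide replicate 3 (0.0219 to 0.152), and that of *Anln* in 5 of 6 such fits, all but that lacking cycloheximide replicate 1 (0.0461 to 0.183).

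*Mki67*, *Top2a*, *Cdk1* and *Bub1b* were not called with cycloheximide. *Mki67* had 635, 614 and 649 CPM with cycloheximide against 635, 701 and 667 CPM with PDGF (log2 change −0.08), and *Top2a* had 177, 216 and 216 CPM with cycloheximide against 188, 217 and 198 CPM with PDGF (0.01). *Cdk1* had 3.72, 8.32 and 4.61 CPM with cycloheximide against 9.09, 7.5 and 7.87 CPM with PDGF (−0.58). *Bub1b* had 81.1, 84.7 and 89.3 CPM with cycloheximide against 76, 69.3 and 74.4 CPM with PDGF (0.22). The libraries of *Bub1b* did not overlap, and those of *Mki67*, *Top2a* and *Cdk1* did.

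The 2 genes that fell were both low. *Birc5*, which encodes survivin of the chromosomal passenger complex, had 1.03, 1.26 and 0.576 CPM with cycloheximide against 6.88, 9.82 and 2.69 CPM with PDGF. That was 13 reads with cycloheximide against 76 with PDGF, and the groups did not overlap (−2.73 ± 0.50 SE, adjusted p = 5.48e-06). *Racgap1* had 7 reads with cycloheximide against 29 with PDGF, or 0.621, 0.252 and 0.576 CPM with cycloheximide against 4.41, 1.55 and 1.45 CPM with PDGF (−2.22 ± 0.69 SE, adjusted p = 0.00709). Without PDGF replicate 1, which holds the highest of these values, that call was lost (adjusted p 0.00461 to 0.121). Again no read of *Racgap1* lay on a protein-coding transcript, where it could hardly be counted.

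TerminaTOR cells were set against mCherry cells, both with cycloheximide and PDGF, to ask what nuclear mTORC1 controls without new protein. Mitotic genes were slightly higher in TerminaTOR cells: 6 of 30 were called higher and none lower, directions called in 2.35% and 2.57% of all genes. The median log2 change was 0.26, against 0.00 over all genes, and 28 of 30 changes were above 0. At an unadjusted p under 0.05, 12 were higher and 0 lower, and DESeq2 and limma-voom each called 6 higher and 0 lower. In 12 genes the TerminaTOR libraries lay wholly above the controls, against 12.0% of all genes. The count depends on single libraries: it was 0 without mCherry replicate 1, 3 without replicate 2 and 4 without replicate 3, and 2, 7 and 3 without TerminaTOR replicate 1, 2 and 3. No gene was called in all 6 of these fits. Without the filter on low counts 3 were called. By role, edgeR called 2 of 3 kinetochore genes, 2 of 5 other spindle genes, 1 of 6 kinesins and 1 of 4 genes of chromosome structure. It called none in the remaining roles. Fibroblast markers summed to 10258 to 10878 CPM in TerminaTOR libraries against 9037 to 9385 CPM in mCherry libraries. Of 12 tested markers, 4 were called higher and 2 lower (2.35% and 2.57% of all genes), and their part in the result was not tested.

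*Cenpf* had 119, 113 and 119 CPM in TerminaTOR cells against 79.4, 97.3 and 99.1 CPM in mCherry cells, without overlap (0.35 ± 0.10 SE, adjusted p = 0.0198). Its adjusted p ran from 0.0262 to 0.267 over the 6 fits and was lost in 3, those lacking mCherry replicate 1 or TerminaTOR replicate 1 or 3. *Cenpe* had 286, 270.1 and 266 CPM in TerminaTOR cells against 222, 227 and 239 CPM in mCherry cells (0.26 ± 0.07 SE, adjusted p = 0.0165). It was lost in 4 fits, those lacking replicate 1 or 2 of either group (range 0.0365 to 0.186).

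*Hmmr* had 213, 196 and 208 CPM in TerminaTOR cells against 153, 148 and 183 CPM in mCherry cells (0.35 ± 0.08 SE, adjusted p = 0.00335). The call was lost without mCherry replicate 1 or 2 (range 0.000863 to 0.0674). *Ckap2l*, a spindle and midbody protein, had 167, 144 and 168 CPM in TerminaTOR cells against 119, 141 and 130.4 CPM in mCherry cells (0.30 ± 0.09 SE, adjusted p = 0.0337). It was lost in 4 fits, those lacking replicate 1 or 3 of either group (range 0.0239 to 0.266).

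*Top2a* had 249.5, 249 and 268 CPM in TerminaTOR cells against 177, 216 and 216 CPM in mCherry cells (0.33 ± 0.08 SE, adjusted p = 0.00364). Here mCherry replicate 1 was the lowest, and the call was lost without it (range 0.00526 to 0.127). *Kif11* had 208, 192 and 186 CPM in TerminaTOR cells against 163, 164 and 168 CPM in mCherry cells (0.24 ± 0.08 SE, adjusted p = 0.0429), and its call was lost in all 6 fits (range 0.0618 to 0.336). Each of the 6 genes was under 1.3-fold higher.

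*Bub1b*, *Cdc20*, *Plk1*, *Cdk1* and *Mki67*, all lower with rapamycin, were not called here. *Bub1b* had 109, 100.1 and 102 CPM in TerminaTOR cells against 81.1, 84.7 and 89.3 CPM in mCherry cells, without overlap (0.29 ± 0.11 SE, adjusted p = 0.13). *Cdc20* had 117, 90.8 and 107 CPM in TerminaTOR cells against 68.7, 93.3 and 91.4 CPM in mCherry cells (0.32 ± 0.11 SE, adjusted p = 0.0989). *Plk1* had 38.4, 29.9 and 35.1 CPM in TerminaTOR cells against 26.5, 25.7 and 33.2 CPM in mCherry cells (0.27 ± 0.17 SE, adjusted p = 0.436), and *Cdk1* had 7.65, 2.95 and 4.88 CPM in TerminaTOR cells against 3.72, 8.32 and 4.61 CPM in mCherry cells (−0.04 ± 0.33 SE, adjusted p = 0.97). *Mki67*, the most counted of the 30, had 683, 630 and 631 CPM in TerminaTOR cells against 635, 614 and 649 CPM in mCherry cells (0.04 ± 0.06 SE, adjusted p = 0.839). *Birc5* had the largest log2 change, 1.43 ± 0.55 SE on 37 reads in TerminaTOR cells against 13 in mCherry cells, and did not pass (adjusted p = 0.142).

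**Figure D4:**
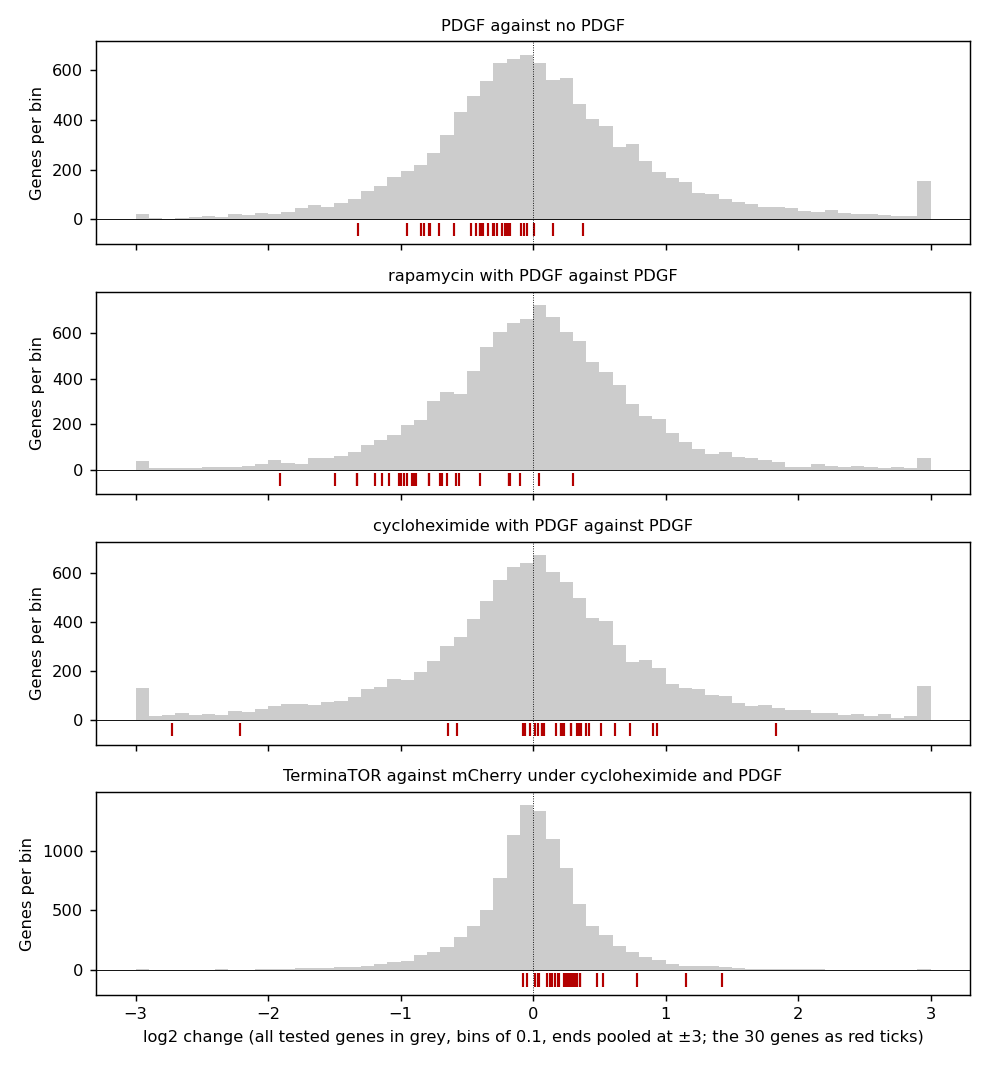
Number of genes per log2 change (grey bars, bins of 0.1, ends pooled at ±3) for all 10603 tested genes in 4 comparisons, with the 30 mitosis and spindle genes as red ticks. The ticks lie mostly left of 0 with rapamycin, where their median is −0.83, and mostly right of 0 in TerminaTOR cells, where it is 0.26.

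The difference between the inhibitors was tested directly, as the rapamycin change minus the TerminaTOR change. These comparisons share no library, but cycloheximide was present only in the TerminaTOR one, so the agent and the setting cannot be told apart. For mitotic genes 20 of 30 differences were called negative and none positive, a direction called in 12.4% of all genes. The median difference was −1.04 on the log2 scale, against 0.01 over all genes. At an unadjusted p under 0.05 there were 24 negative and 0 positive differences, and DESeq2 and limma-voom each called 20 negative and 0 positive. Leaving out any single library of the 4 groups gave 19 to 21. The difference was −2.19 ± 0.18 SE for *Bub1b* (adjusted p = 7.69e-17), −1.81 ± 0.18 SE for *Cdc20* and −1.62 ± 0.17 SE for *Ckap2*. *Mki67* differed by −1.01 ± 0.09 SE, and *Top2a* by −0.51 ± 0.11 SE (adjusted p = 0.000263). *Cdk1* was not called (−1.04 ± 0.48 SE, adjusted p = 0.114), nor were *Prc1*, *Ccna2*, *Ube2c*, *Cenpa*, *Birc5*, *Racgap1* and the kinesins *Kif15*, *Kif23* and *Kif2c*.

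**Figure D5:**
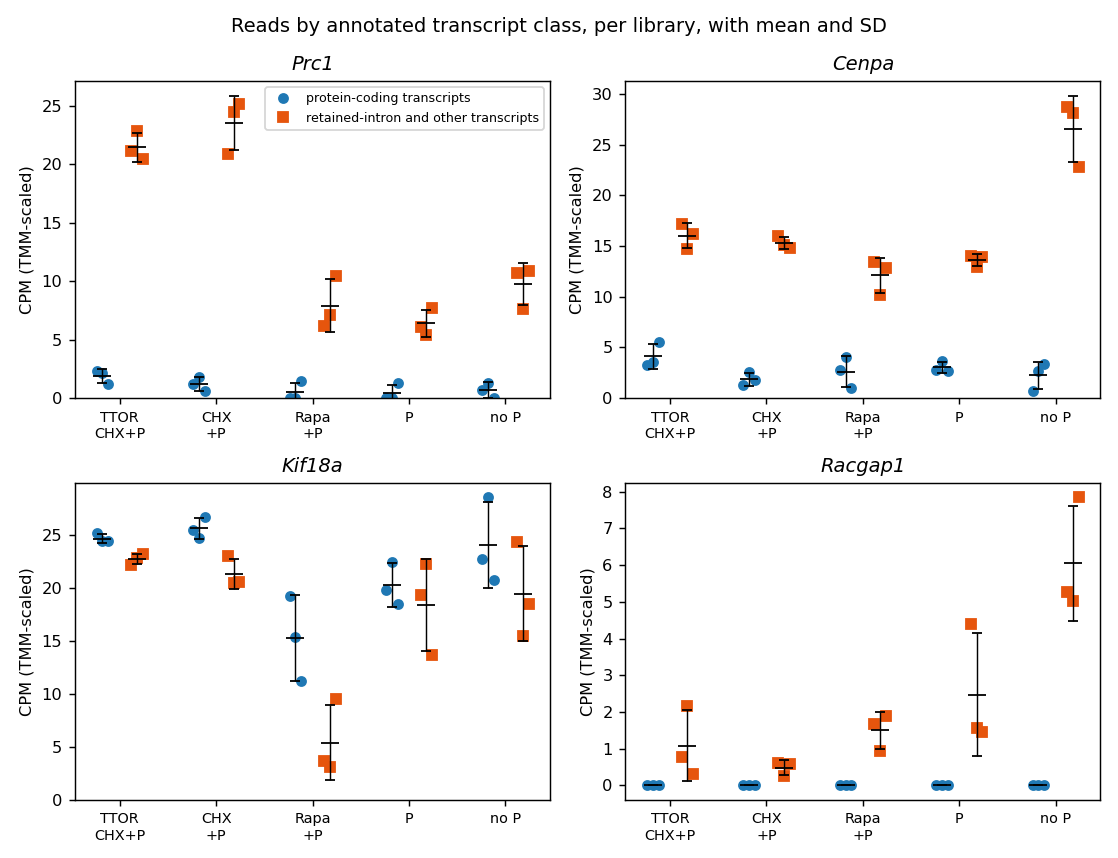
CPM per library with mean and SD for *Prc1*, *Cenpa*, *Kif18a* and *Racgap1*, split into protein-coding transcripts (circles) and retained-intron and other transcripts (squares). Among counted reads, the squares carry the *Prc1* rise under cycloheximide and the *Cenpa* and *Racgap1* differences between PDGF and no PDGF. Protein-coding transcripts of *Prc1* and *Racgap1* have few or no bases of their own, so the circles cannot show how their coding RNA changed.

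The lowest place, held by the rapamycin group, was shared by 26 of the 30 genes, while the order of the remaining groups differed between genes. As a description over 5 group means, each gene was correlated with the mean of the other tested genes. The lowest Pearson values were −0.32 for *Birc5*, 0.08 for *Racgap1*, 0.48 for *Prc1*, 0.54 for *Cdk1* and 0.68 for *Ccna2*. *Cenpf* had 0.95 and *Mki67* 0.93. Among the genes outside the list whose 5 group means followed the average of the 30 most closely, of 9283 compared, were *Eml3* (0.9996), *Tmem101* (0.9984), *Pigs* (0.9957) and *Cyp4v3* (0.9957). A likeness over 5 points, picked as the closest of 9283, is a description only.

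Other genes of the same programme were read from fixed lists, whose counts are to be set against the shares called over all genes. These were 16.1% lower and 16.3% higher with rapamycin, 16.9% lower and 20.1% higher with PDGF, 19.6% lower and 21.0% higher with cycloheximide, 2.57% lower and 2.35% higher in TerminaTOR cells, and 12.4% negative and 11.6% positive for the difference. Of 79 further G2 and M phase genes, 44 were tested. With rapamycin against PDGF, 28 were lower and 4 higher (median −0.73), and among them *Pimreg*, a mitotic regulator, averaged 7.83 ± 1.02 CPM with rapamycin against 32.3 ± 3.07 CPM with PDGF (log2 change −2.04 ± 0.19 SE, adjusted p = 2.14e-14). The centrosome kinase *Nek2* averaged 12 ± 2.35 CPM with rapamycin against 39 ± 3.62 CPM with PDGF (−1.68 ± 0.17 SE, adjusted p = 1.41e-13), and the kinase *Melk* 5.6 ± 1.22 CPM with rapamycin against 17.9 ± 3.79 CPM with PDGF (−1.66 ± 0.24 SE, adjusted p = 4.47e-08). With PDGF against no PDGF, 13 were lower and 6 higher (median −0.23). The risers included *Zwint*, a kinetochore protein, at 650.4 ± 17.9 CPM with PDGF against 231 ± 8.28 CPM without, and the tubulin *Tuba1c*, at 326 ± 29.9 CPM with PDGF against 95.9 ± 8.53 CPM without. With cycloheximide, 14 were higher and 5 lower (median 0.09). In TerminaTOR cells 2 were higher and 0 lower (median 0.19). These were the kinetochore gene *Cenpq*, at 30.4 ± 4.26 CPM in TerminaTOR cells against 18.5 ± 1.03 CPM in mCherry cells, and the condensin II gene *Ncapg2*, at 149 ± 6.86 CPM in TerminaTOR cells against 119.8 ± 15.4 CPM in mCherry cells. By unadjusted p under 0.05 that comparison had 9 higher and 1 lower, by DESeq2 2 and 1, and by limma-voom 3 and 1. For the rapamycin change minus the TerminaTOR change, 24 differences were negative and 5 positive (median −0.88).

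Transcription factors and complexes that act on these promoters formed another list. Of 23 such regulators, 16 were tested. With rapamycin 5 were lower and 2 higher (median −0.16), among them *E2f2* (−1.26 ± 0.41 SE, adjusted p = 0.0115) and *Lin52*, a MuvB subunit (−1.08 ± 0.23 SE, adjusted p = 7.62e-05), both lower, and *Nfya*, a subunit of the CCAAT-binding factor, higher (1.19 ± 0.30 SE, adjusted p = 0.00125). Over all genes 16.3% were higher with rapamycin, so 2 of 16 is no result about the list. With PDGF 4 were lower and 1 higher. *Mybl2*, the gene of B-Myb, averaged 1.2 ± 0.63 CPM with PDGF against 3.55 ± 0.272 CPM without (−1.53 ± 0.53 SE, adjusted p = 0.0174), and *Tfdp2*, an E2F partner, 26.5 ± 4.15 CPM with PDGF against 67.6 ± 1.99 CPM without. With cycloheximide 2 were higher, *Mybl2* (3.38 ± 1.36 CPM with cycloheximide against 1.2 ± 0.63 CPM with PDGF) and *Nfyb* (20.4 ± 0.822 CPM with cycloheximide against 10.6 ± 1.83 CPM with PDGF), and 0 lower, with 2 higher and 3 lower at an unadjusted p under 0.05. DESeq2 called 2 higher and 0 lower there, and limma-voom 1 and 0. The fall and the rise of *Mybl2* use the same low values with PDGF and are not independent. In TerminaTOR cells 1 was lower, *Nfyb*, at 12.3 ± 0.965 CPM in TerminaTOR cells against 20.4 ± 0.822 CPM in mCherry cells (−0.72 ± 0.21 SE, adjusted p = 0.029), and 0 were higher, with 2 higher and 2 lower at an unadjusted p under 0.05 and the same counts as edgeR in DESeq2 and limma-voom.

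S phase and replication genes were also mostly lower with rapamycin. Of 21 tested among 39, 12 were lower and 1 higher with rapamycin (median −0.60), with *Ccne1*, the cyclin of G1 to S transition, at 2.27 ± 0.209 CPM with rapamycin against 5.56 ± 2.18 CPM with PDGF and the thymidine kinase *Tk1* the riser, at 44.7 ± 2.98 CPM with rapamycin against 19.8 ± 3.1 CPM with PDGF. With PDGF 3 were lower and 0 higher (16.9% and 20.1% of all genes). The 3 lower lie near the share of all genes and are no result about the list. With cycloheximide 7 were higher and 2 lower (21.0% and 19.6% of all genes). DESeq2 called 2 lower with PDGF, and 6 higher and 0 lower with cycloheximide, while limma-voom gave the same counts as edgeR. In TerminaTOR cells edgeR called 0 in either direction, with 6 higher and 0 lower at an unadjusted p under 0.05, while DESeq2 and limma-voom each called 1 higher. Of 14 tested anaphase-promoting complex genes, 1 was lower with rapamycin, *Fbxo5*, an inhibitor of the complex, at 14.6 ± 4.89 CPM with rapamycin against 22.7 ± 2.29 CPM with PDGF, and 0 higher. With PDGF 7 of them were lower and 1 higher by edgeR and by limma-voom, and 5 lower and 1 higher by DESeq2. Of 9 tested cohesin genes, which hold sister chromatids together, 4 were lower and 2 higher with rapamycin (16.1% and 16.3% of all genes), including *Esco2* (5.93 ± 1.54 CPM with rapamycin against 15.8 ± 5.09 CPM with PDGF). With PDGF 3 cohesin genes were lower and 1 higher. With cycloheximide 3 anaphase-promoting complex genes were higher and 2 lower, and 3 cohesin genes were higher and 2 lower (21.0% and 19.6% of all genes). With 9 genes, counts of 1 to 3 are not read as a result about the list. In TerminaTOR cells edgeR, DESeq2 and limma-voom called 0 genes of either list, and at an unadjusted p under 0.05 there was 1 higher anaphase-promoting complex gene and no cohesin gene.

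Of 11 tested cyclins and inhibitors of G1, 4 were lower and 2 higher with rapamycin (16.1% and 16.3% of all genes). The CDK inhibitor gene *Cdkn1a* averaged 9.45 ± 2.16 CPM with rapamycin against 2.36 ± 0.892 CPM with PDGF and *Cdkn1b* 31.3 ± 1.75 CPM with rapamycin against 61.3 ± 6.64 CPM with PDGF. With PDGF 2 were higher and 4 lower (20.1% and 16.9% of all genes), and with cycloheximide 2 were higher and 3 lower (21.0% and 19.6%). With so few genes, the counts of 2 and 3 lie near the shares of all genes and are no result about the list. With PDGF, *Ccnd2*, a D-type cyclin that growth factors induce, averaged 1048 ± 27.7 CPM with PDGF against 402 ± 16.8 CPM without, and *Cdkn1b* averaged 61.3 ± 6.64 CPM with PDGF against 138 ± 10.2 CPM without. In TerminaTOR cells 0 of 11 were called by edgeR, DESeq2 or limma-voom, with 2 higher and 1 lower at an unadjusted p under 0.05.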

How the data were processed

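The deposited files hold raw read counts per mouse transcript, which the authors made with HISAT2 2.2.1, HTSeq 0.9.1 and R 4.1.0, per the submitters' processing notes. Those notes name the build hg38, a human assembly, while the identifiers are those of mouse transcripts. The mouse build and the annotation release are not stated there. Identifiers were matched, without version, to GENCODE M21 on GRCm38: 141536 of 142446 matched, and the 910 others held 0.0309% of counts and were left out. The overlap and strand settings of the counting are not stated, so antisense reads cannot be told apart from a gene's own.

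Counts were summed per gene and, for the 10603 genes that passed filterByExpr (minimum count 10), fitted with edgeR 4.0.16 in R 4.3.3: TMM scaling, a mean per group over all 15 libraries, robust quasi-likelihood with 10 residual degrees of freedom, and Benjamini-Hochberg adjustment over all genes. DESeq2 1.42.0 and limma 3.58.1 (voom) were alternatives. The code was tested on simulated data. Alternatives were scaling, filter, tool, compared groups only, the transcript with the most reads, a replicate block, each library left out and, chosen after seeing the data, protein-coding transcripts only.

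The 49 genes and the gene lists were chosen with earlier results of these data known. Values per library are given, in each of the comparisons PDGF, rapamycin, cycloheximide and TerminaTOR, for the 6 called genes with the largest change and a mean count of at least 10, and for *Mki67*, *Top2a*, *Cdk1*, *Plk1*, *Bub1b* and *Cenpf*. *Ccnb1* and *Aurkb* were also on that list but failed the filter. Up to 3 called genes were eligible per other list and comparison, and 5 for likeness, of which 1 is not reported here. Replicate numbers gave no sign of pairing samples: over 30 same-numbered pairs the correlation of deviations ran from −0.04 to 0.08, and 0 were over 0.1. A weak shared effect could be missed by this check.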

Additional observations from a re-analysis of the deposited data

Results flagged for a closer look

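The rapamycin and TerminaTOR changes differed by a test of the difference itself, the rapamycin change minus the TerminaTOR change in 1 edgeR fit with Benjamini-Hochberg adjustment. By that test 20 of the 30 tested mitosis and spindle genes had a negative difference and 0 a positive one (24 and 0 at an unadjusted p under 0.05, and 20 and 0 by DESeq2 and by limma-voom). On the log2 scale the difference was −2.19 for *Bub1b*, −1.81 for *Cdc20*, −1.62 for *Ckap2*, −1.54 for *Hmmr* and −1.41 for *Plk1*. It was −1.04 for *Cenpf*, −1.01 for *Mki67* and −0.51 for *Top2a*. Cycloheximide was present in both groups of the TerminaTOR comparison and in neither group of the rapamycin comparison, and the cell lines differed only in the TerminaTOR comparison, so these cannot be told apart from the inhibitor.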

How the results depend on the processing

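Counts of called genes under an alternative stayed within 1.5 times in 290 cases and moved further in 16. The cases include counts over all genes tested, and a count of 0 in both settings was taken as unmoved. By library size only, 23 genes were lower with PDGF (13 with TMM) and 7 higher with cycloheximide (11), while the median of all genes moved to −0.26 for PDGF, −0.10 for rapamycin, −0.13 for cycloheximide, −0.36 for rapamycin against no PDGF and −0.14 for the difference. With protein-coding transcripts only, 7 were higher with cycloheximide, and *Cenpa* reversed to 0.45 for PDGF and 0.27 for rapamycin against no PDGF. Without the filter, 3 were higher in TerminaTOR cells (6). With the compared groups only, 1 was lower with cycloheximide (2), and 804 genes in all were called in the TerminaTOR comparison (522). The cause was not tested.

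With each library left out in turn, the genes called higher in TerminaTOR cells ran from 0 to 7 and all genes called there from 308 to 367. With cycloheximide, the genes called higher ran from 7 to 12 and lower from 1 to 3. The other counts stayed within 1.5 times: 12 to 15 lower with PDGF, 18 to 20 with rapamycin, 25 to 26 with rapamycin against no PDGF and 19 to 21 for the difference. Of the values of single genes, 2894 kept their call or its absence, 78 lost and 45 gained a call, and 2 reversed. A value called in neither setting counted as kept whatever its direction. A replicate block gave 6 higher in TerminaTOR cells, as without it. Depth limits *Kif2c*, *Kif23*, *Racgap1*, *Birc5*, *Ccna2* and *Cdk1*, the 6 tested genes with the fewest reads (108 to 463 over the 15 libraries).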
